A study of Schizosaccharomyces pombe with 13 samples.

Results

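The early-numbered long noncoding RNAs of fission yeast (Schizosaccharomyces pombe) are transcripts whose identifier is SPNCRNA followed by a number below 600. They were chosen by that identifier alone, with no measured value, and 228 of the 5747 entries of the authors' deposited sense table met it. The deposited descriptions call 35 of them poly(A)-bearing and 14 centromeric. A few are well studied, such as the telomerase RNA ter1 and the meiotic RNA sme2.

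Total RNA was sequenced from 4 wild-type libraries and from 3 libraries each of an xap5 deletion, a pht1 deletion and a strain lacking both genes. All strains were haploid in the ED668 background and carried ade6-M216, ura4-D18 and leu1-32. In the xap5 deletion, a Bioneer strain, KanMx4 stood in place of the gene; in the pht1 deletion NatMx4 did, and the double deletion carried both. Wild type and the xap5 deletion were labelled h+, whereas the pht1 and double deletions were labelled h-. Where these labels hold, loss of pht1 cannot be told apart from the other mating type in the latter strains. The mating-type genes mat1-Mc and mat3-Mc, given below, did not follow these labels. Both were low in the xap5 deletion alone, at deposited log2 folds of -4.27 and -4.28. By these values, loss of xap5 and differences from the xap5 deletion may not be told apart from mating type either. Cultures were started at 30 °C in YES medium and grown at 37 °C in EMM50 to exponential phase, wild type included. Ribosomal RNA was depleted, the strand was kept, and 100-base single reads were obtained, on average 11.8 M for a library by the labels. The labels do not say whether the libraries of a strain came from separate cultures, so the deposited p-values may measure technical spread. Values per library were not used here. The deleted genes were low where the labels place the deletions: xap5 had deposited log2 folds of -3.11, 0.33 (not called) and -2.11 in the xap5, pht1 and double deletions, and pht1 had -0.03 (not called), -2.13 and -1.55. Each value below is the authors' deposited log2 fold of a deletion against the same 4 wild-type libraries, with the deposited adjusted p-value and no standard error.

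Long noncoding RNAs of fission yeast are made by RNA polymerase II, often from the nucleosome-depleted region that also serves a coding gene in the opposite orientation. Many stay scarce in growing cells because chromatin limits their initiation and nuclear RNA decay removes them. H2A.Z, the product of pht1, is a histone variant placed beside transcription start sites, and Xap5 is a nuclear protein found from yeast to humans. The question put by the series is whether both restrain aberrant transcripts.

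Of the 228 RNAs, 177 were located in the RefSeq annotation of assembly ASM294v3 by their identifier. For 5 of them the 300 bases from 250 before to 50 after the annotated start are shown, 5′ to 3′ on the RNA's own strand, from RefSeq ASM294v3. SPNCRNA.540, SPNCRNA.549, SPNCRNA.31 and SPNCRNA.43 had the highest deposited double-deletion folds of the 228, and SPNCRNA.570 had the smallest adjusted p-value. The windows lie at chrII:2661392-2661691 on the plus strand, chrIII:2044727-2045026 on the plus strand, chrI:2975358-2975657 on the plus strand, chrI:2432872-2433171 on the minus strand and chrII:1297474-1297773 on the minus strand. Capitals mark matches, on either strand, to 4 stress or promoter motifs: TGACGT (the core read by the stress factor Atf1), GAANNTTC (a heat shock element), CCCCTC (a C-rich stress element) and TATAAA (the TATA box).
SPNCRNA.540: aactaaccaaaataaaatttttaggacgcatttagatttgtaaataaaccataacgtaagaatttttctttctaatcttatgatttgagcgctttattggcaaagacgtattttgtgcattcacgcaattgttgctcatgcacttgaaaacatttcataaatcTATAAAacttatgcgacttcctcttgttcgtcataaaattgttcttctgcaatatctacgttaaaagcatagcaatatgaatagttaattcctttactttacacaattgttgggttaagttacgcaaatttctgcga
SPNCRNA.549: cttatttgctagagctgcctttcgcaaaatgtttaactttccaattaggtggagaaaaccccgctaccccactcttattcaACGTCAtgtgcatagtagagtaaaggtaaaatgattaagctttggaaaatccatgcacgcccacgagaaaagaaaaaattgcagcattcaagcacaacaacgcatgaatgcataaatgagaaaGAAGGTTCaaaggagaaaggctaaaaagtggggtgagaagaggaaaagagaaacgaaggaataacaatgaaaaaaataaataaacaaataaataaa
SPNCRNA.31: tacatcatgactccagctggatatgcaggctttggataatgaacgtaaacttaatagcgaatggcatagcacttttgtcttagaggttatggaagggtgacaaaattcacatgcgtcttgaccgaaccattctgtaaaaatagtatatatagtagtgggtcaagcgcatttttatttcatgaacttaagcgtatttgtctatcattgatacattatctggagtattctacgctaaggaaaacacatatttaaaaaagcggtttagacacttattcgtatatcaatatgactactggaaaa
SPNCRNA.43: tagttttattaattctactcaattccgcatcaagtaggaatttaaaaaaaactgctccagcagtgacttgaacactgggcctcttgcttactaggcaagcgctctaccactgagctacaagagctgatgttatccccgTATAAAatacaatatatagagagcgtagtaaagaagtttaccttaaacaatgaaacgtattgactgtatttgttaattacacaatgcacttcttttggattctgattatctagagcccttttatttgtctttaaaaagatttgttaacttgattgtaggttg
SPNCRNA.570: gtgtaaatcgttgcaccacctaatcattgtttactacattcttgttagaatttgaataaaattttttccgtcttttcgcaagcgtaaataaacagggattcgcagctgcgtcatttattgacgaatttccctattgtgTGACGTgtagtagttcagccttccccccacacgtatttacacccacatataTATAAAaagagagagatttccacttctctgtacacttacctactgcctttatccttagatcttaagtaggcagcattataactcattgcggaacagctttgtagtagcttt
Counted from the annotated start, the capitals begin at -87 (TATA) for SPNCRNA.540, at -169 (TGACGT, reversed) and -46 (heat shock) for SPNCRNA.549, at -112 (TATA) for SPNCRNA.43, and at -112 (TGACGT) and -61 (TATA) for SPNCRNA.570. No printed match overlaps another, and the window of SPNCRNA.31 holds none of these letters. That window lies within SPNCRNA.867 on the same strand and SPNCRNA.866 on the other, the window of SPNCRNA.43 holds a tRNA gene, and 98 bases of that of SPNCRNA.570 belong to wsc1. Over the 177 located RNAs, TGACGT was present in 7.91% of such windows, the heat shock letters in 11.3%, CCCCTC in 5.65% and TATAAA in 42.9%. For the 5112 protein-coding genes the shares were 5.91%, 11.1%, 2.11% and 48.1%. Of the 70 located RNAs that rose in the double deletion, 12.9% held TGACGT, 15.7% the heat shock letters, 4.29% CCCCTC and 40.0% TATAAA. Of the 91 not called there, the shares were 5.49%, 6.59%, 6.59% and 39.6%. In the xap5 deletion the 48 that rose had 6.25%, 14.6%, 2.08% and 33.3%, and the 119 not called had 8.4%, 9.24%, 5.88% and 45.4%. In the pht1 deletion the 30 that rose had 10.0%, 10.0%, 6.67% and 33.3%, and the 138 not called had 7.25%, 11.6%, 5.07% and 43.5%. TGACGT and the heat shock letters were thus not on the same side in every deletion. Such matches describe letters and are not shown to be used.

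These RNAs were more often higher than lower in every deletion (the plot of all folds by deletion). An RNA is called, and said to rise or fall, when its deposited adjusted p-value is under 0.05. In the xap5 deletion 66 of the 228 RNAs rose (28.9%) and 11 fell (4.82%), beside 21.1% and 20.6% of all entries of the deposited sense table. In the pht1 deletion 33 rose (14.5%) and 12 fell (5.26%), beside 13.5% and 11.1% of all entries; the share that rose is near that background. In the double deletion 95 rose (41.7%) and 19 fell (8.33%), beside 30.5% and 34.3%. The median deposited log2 fold of the RNAs was 0.49, 0.28 and 0.61 in the xap5, pht1 and double deletions, where all entries had medians of -0.01, -0.02 and -0.05. Called changes of at least 2-fold were mostly upward, both for these RNAs and over all deposited entries. At that size 48, 23 and 81 RNAs rose (21.1%, 10.1% and 35.5%), beside 8.23%, 4.11% and 15.1% of all deposited entries. In the same order 5, 3 and 8 fell (2.19%, 1.32% and 3.51%), beside 1.04%, 0.522% and 5.1%. The 429 SPNCRNA entries numbered 600 and above had more calls upward than the early ones, with 188, 126 and 255 higher and deposited medians of 0.53, 0.44 and 0.91. The wild-type libraries are shared by the 3 comparisons, so these counts are not independent of each other.

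**Figure D1:**
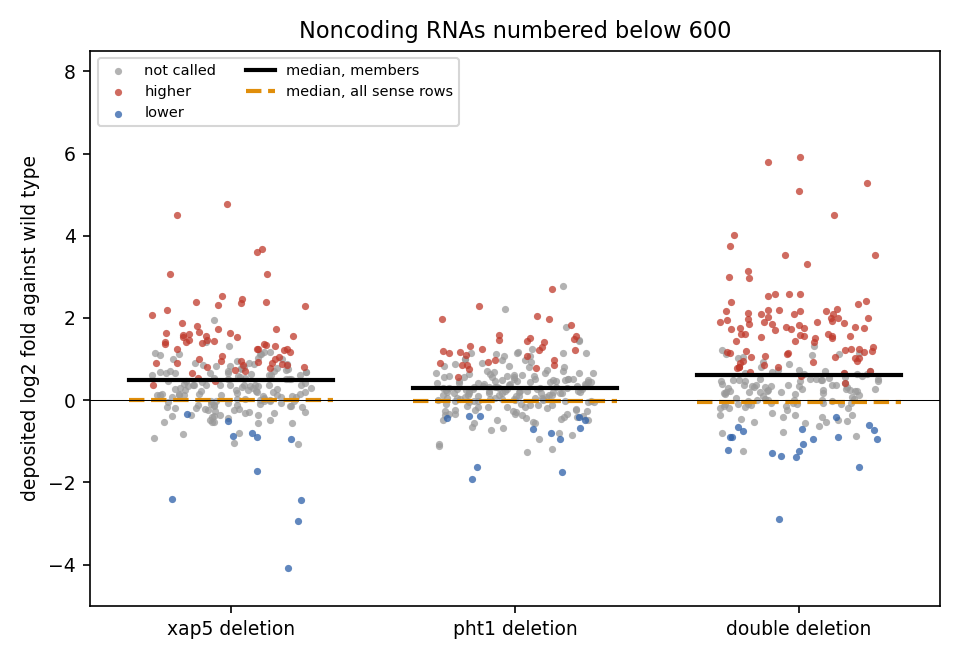
Deposited log2 fold against wild type (vertical axis) of each early-numbered noncoding RNA in the xap5, pht1 and double deletions; points are RNAs, coloured by call at adjusted p under 0.05, and the lines are medians of these RNAs and of all sense entries. The medians of the RNAs lie at 0.49, 0.28 and 0.61 and those of all entries near 0. The highest RNA reaches 5.92 in the double deletion. By its deposited fold, 1 RNA had no reads in the pht1 deletion and is not drawn there.

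SPNCRNA.540 had the highest fold of the 228 RNAs in the double deletion. It lies at chrII:2661642-2662360 on the plus strand, is 719 bases long, and is divergent from hsp16, a small heat shock protein gene whose start is 649 bases away. Its deposited log2 folds were 4.51 in the xap5 deletion (adjusted p = 3.13e-15), 1.97 without pht1 (0.0256) and 5.92 in the double deletion (1.46e-29). The deposited folds of hsp16 were similar at 3.70, 1.80 and 5.15, and all 3 were called. SPNCRNA.540 covers the small predicted gene SPBC3E7.17 on the same strand, which had no reads in wild type by its deposited folds, so reads of the overlap cannot be assigned to one of them.

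SPNCRNA.549 was second in the double deletion. It lies at chrIII:2044977-2046024 on the plus strand, 612 bases from the divergent gene SPCC1739.08c, and overlaps no other gene of the reference. Its deposited log2 folds were 3.61 in the xap5 deletion (adjusted p = 0.000569), 2.77 without pht1 (0.083, not called) and 5.79 in the double deletion. The divergent gene SPCC1739.08c had deposited folds of 2.25, 2.56 and 5.27, all called. Both partners of the pair had their highest folds in the double deletion.

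SPNCRNA.31, a poly(A)-bearing RNA at chrI:2975608-2976007, rose in all 3 deletions, with deposited log2 folds of 3.68, 2.05 and 5.29. It lies wholly inside the longer SPNCRNA.867 on the same strand, whose deposited folds were 2.89, 1.72 and 4.65. The 2 entries share their reads there and count a single change in part. SPNCRNA.43 (prl43), a poly(A)-bearing RNA at chrI:2432340-2432921 opposite drc1, a DNA replication gene, rose in the xap5 and double deletions with deposited folds of 4.77 and 5.09. In the pht1 deletion its deposited fold of 2.21 was not called (adjusted p = 0.407). The tRNA gene SPATRNATHR.02 lies in its upstream window on the other strand, and drc1 itself had a deposited fold of -0.37 in the double deletion (adjusted p = 0.00798). The antisense signal listed for drc1 had a deposited fold of 2.35 in the double deletion.

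SPNCRNA.570 and SPNCRNA.133 carried some of the smallest adjusted p-values, and the folds of each lie close to those of a coding gene it overlaps on the same strand. SPNCRNA.570 rose in all 3 deletions with deposited log2 folds of 2.38, 1.42 and 4.01, and the gene SPBC30B4.09, which covers 60.5% of it, had 2.34, 1.48 and 4.04. SPNCRNA.133 had deposited folds of 2.37, 0.56 and 3.53, all called, and lies entirely within fhn1, a plasma membrane organization gene, at 2.36, 0.62 and 3.39. For these RNAs the reads of the overlap cannot be assigned to the noncoding or the coding entry.

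The remaining RNAs with high folds differ in the deletions in which they were called. Some folds that were not called are large, and no difference between deletions was tested. SPNCRNA.79 rose in the xap5 deletion (3.08) and the double deletion (4.50), and its deposited pht1 fold of 1.78 was not called. SPNCRNA.428, 813 bases from the cyclin gene puc1, rose in all 3, with deposited folds of 2.30, 2.70 and 3.54. SPNCRNA.335 rose in the pht1 deletion (2.29) and the double deletion (3.74), with a deposited fold of 1.18 in the xap5 deletion that was not called. SPNCRNA.534 was called in the double deletion alone, at a deposited 3.15, with 0.89 and -0.26 in the single deletions. SPNCRNA.79 and SPNCRNA.534 each lie within a longer noncoding RNA of the same strand, SPNCRNA.672 and SPNCRNA.1362, whose deposited double deletion folds were 2.17 and 1.78. Other RNAs were as high in the xap5 deletion as in the double deletion or higher. SPNCRNA.529, whose start is 99 bases from that of tps1, the trehalose-6-phosphate synthase gene, had deposited folds of 3.07, 1.06 (not called) and 2.22. The deposited folds of tps1 were 2.37, 0.30 (not called) and 2.22. SPNCRNA.332 had deposited folds of 2.53, 0.97 (not called) and 1.19. Over 58.9% of its length it overlaps SPNCRNA.1395 on the same strand, which had deposited folds of 1.92, 0.49 and 1.16. SPNCRNA.529 also lies opposite dbl4, which had deposited folds of 0.20, -0.14 and 0.56. The RNA omt3 (SPNCRNA.130) had 2.39, 0.27 (not called) and 2.00 in the deposited table, and the divergent meiotic regulator gene mei2 had 1.26, 0.06 (not called) and 1.38. For SPNCRNA.451, divergent from hsp3101 of the DJ-1 family, the deposited folds were 1.74, 1.97 and 2.39, all called, whereas hsp3101 had 3.12, 1.19 and 4.52.

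**Figure D2:**
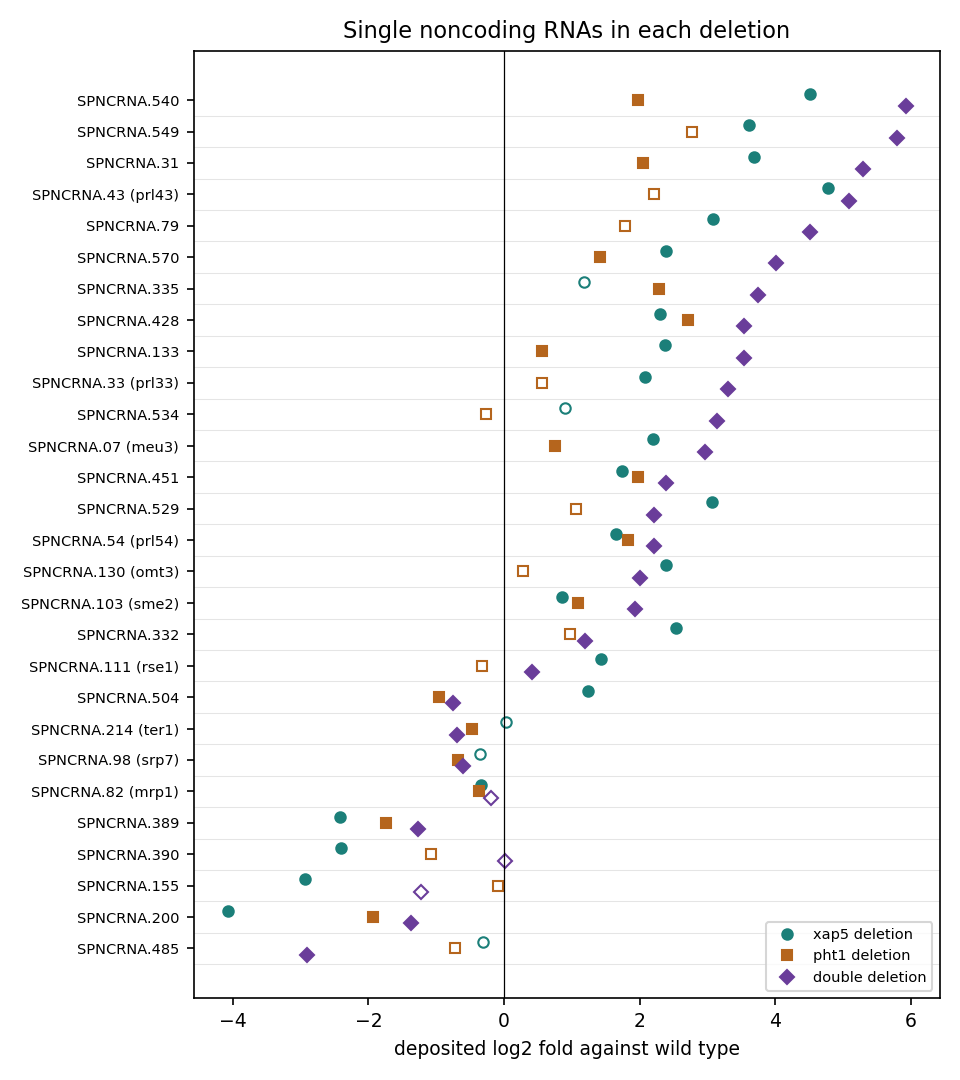
Deposited log2 fold against wild type (horizontal axis) of 28 single noncoding RNAs in the xap5 (circles), pht1 (squares) and double (diamonds) deletions; filled symbols are called at adjusted p under 0.05 and open ones are not. SPNCRNA.540 is highest at 5.92 in the double deletion, SPNCRNA.200 is lowest at -4.08 in the xap5 deletion, and most pht1 symbols lie nearer to 0 than the others.

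Poly(A)-bearing RNAs, many of them known from cDNA collections and named prl, rose in most cases in the double deletion. Of the 35, the xap5, pht1 and double deletions had 18, 7 and 24 higher (51.4%, 20% and 68.6%, beside 21.1%, 13.5% and 30.5% of all deposited entries). In the same order 2, 1 and 1 were lower (5.71%, 2.86% and 2.86%, beside 20.6%, 11.1% and 34.3%). Their deposited median log2 folds were 0.72, 0.48 and 1.16. The 173 RNAs with no such class had 46, 23 and 67 higher (26.6%, 13.3% and 38.7%) and 6, 7 and 12 lower (3.47%, 4.05% and 6.94%). No test of this difference between classes was run. Prl33 (SPNCRNA.33), divergent from the urease accessory gene ure7, had deposited folds of 2.08, 0.55 (not called) and 3.30. Prl54 (SPNCRNA.54) rose in all 3 deletions, with deposited folds of 1.64, 1.82 and 2.20, opposite the checkpoint gene hus1, which fell in the double deletion at a deposited -0.39 (adjusted p = 0.0275). Prl32 (SPNCRNA.32) rose most in the double deletion as well, with deposited folds of 0.55, 1.30 and 1.94. On its own strand it overlaps the coding genes SPCC417.15 (0.42, 1.06 and 1.96) and SPCC417.16 (0.51, 1.22 and 1.60). Reads of the overlap cannot be assigned to one of them. The poly(A)-bearing RNA that fell in the double deletion was prl62 (SPNCRNA.62), within the gene msi2 on the same strand, with deposited folds of -0.81, -0.14 (not called) and -1.06. SPNCRNA.101, which the reference lists as another name of SPNCRNA.62, had its own entry at -0.94, -0.52 (not called) and -1.37 in the deposited table.

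Some RNAs tied to meiosis rose in all 3 deletions. The meiotic RNA sme2 (SPNCRNA.103), which captures the RNA-eliminating protein Mmi1 so that meiosis can proceed, rose by deposited log2 folds of 0.85 (adjusted p = 8.43e-04), 1.09 (2.81e-05) and 1.93 (4.23e-17). The meiotically upregulated RNA meu3 (SPNCRNA.07) rose in all 3 deletions too, at deposited folds of 2.19, 0.75 and 2.96. Meu19 (SPNCRNA.29) rose in the xap5 deletion (1.79) and the double deletion (1.91), and its deposited pht1 fold of 0.50 was not called. Of these RNAs, meu3 and meu19 have 59.2% and 58.3% of their 100-base windows repeated elsewhere in the genome, so their reads may come from copies. Meu20 (SPNCRNA.587) was not called in any deletion, at deposited folds of 0.12, -0.02 and 0.22. The RNA rse1 (SPNCRNA.111), known to repress its neighbour ste11, the master regulator of sexual differentiation, rose in the xap5 deletion (1.43) and the double deletion (0.41), with a deposited -0.33 in the pht1 deletion that was not called. The gene ste11 had deposited folds of 2.01, 0.79 and 2.48, all called. The part of mating type in the values of these RNAs and genes was not tested.

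The 4 structured RNAs of general cell machinery did not rise in any deletion, and 1, 3 and 3 fell in the xap5, pht1 and double deletions. Over all deposited entries 21.1%, 13.5% and 30.5% rose and 20.6%, 11.1% and 34.3% fell. A class of 4 is too small to be set against these shares. The signal recognition particle RNA srp7 (SPNCRNA.98) fell in the pht1 deletion (-0.68) and the double deletion (-0.61), with a deposited -0.36 in the xap5 deletion that was not called. The telomerase RNA ter1 (SPNCRNA.214) fell in the pht1 and double deletions at deposited folds of -0.47 and -0.69 and stood at 0.02 in the xap5 deletion. The RNase MRP RNA mrp1 (SPNCRNA.82) fell in the xap5 deletion (-0.34) and the pht1 deletion (-0.38), and its deposited double deletion value of -0.20 was not called. The RNase P RNA rrk1 (SPNCRNA.128) fell in the double deletion alone, at a deposited -0.40. These shifts were all under 2-fold.

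Centromeric RNAs, which come from the repeats around the centromeres that the RNA interference pathway silences, showed few calls. Of the 14, none rose and 2 fell in the xap5 deletion, 1 rose and 1 fell in the pht1 deletion, and 2 rose and 3 fell in the double deletion. Their shares that rose were 0%, 7.14% and 14.3%, and those that fell were 14.3%, 7.14% and 21.4%. Over all deposited entries 21.1%, 13.5% and 30.5% rose and 20.6%, 11.1% and 34.3% fell. In a class of 14 these shares rest on few RNAs. The deposited medians were -0.34, 0.09 and -0.06. SPNCRNA.365 rose in the pht1 deletion (1.56) and the double deletion (1.78), and its deposited xap5 fold of 0.60 was not called. SPNCRNA.485 fell furthest, at a deposited -2.90 in the double deletion, with -0.31 and -0.73 in the single deletions that were not called. All 14 have more than 50% of their windows repeated elsewhere, so their values cannot be assigned to a single repeat.

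**Figure D3:**
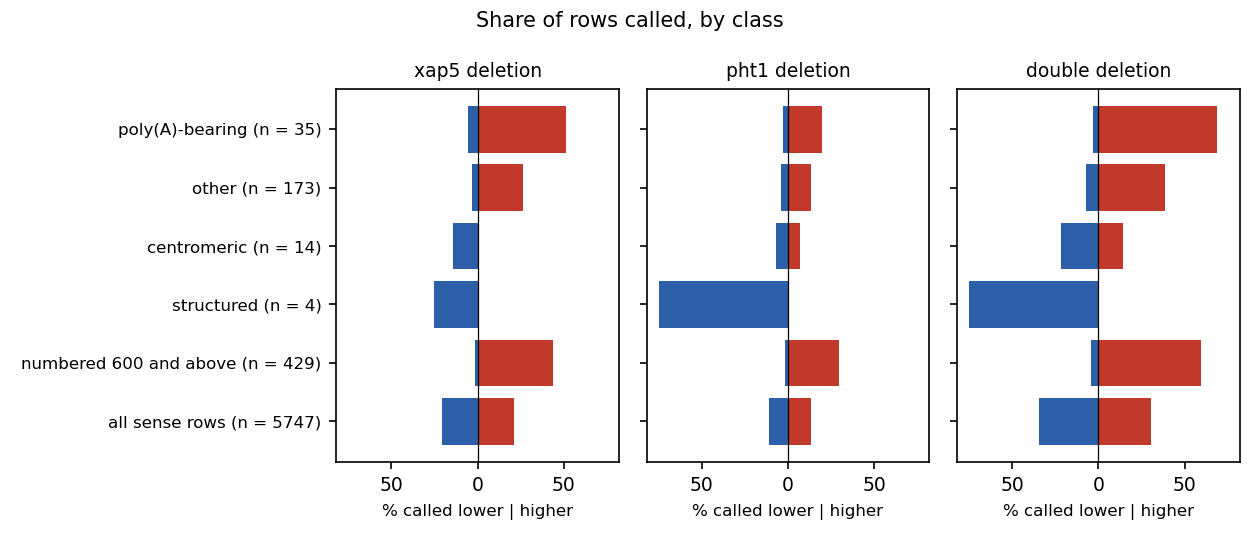
Share of entries called higher (right of 0, red) and lower (left of 0, blue), in percent of each class (n on the vertical axis), for each deletion against wild type. The poly(A)-bearing class has 68.6% higher in the double deletion, the 4 structured RNAs have none higher, and all sense entries have similar shares on both sides.

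The RNAs with the lowest folds lie in different places. SPNCRNA.200, at chrI:2663415-2664052 opposite the gene mug114, fell in all 3 deletions, with deposited log2 folds of -4.08 (adjusted p = 2.26e-05), -1.93 (0.0138) and -1.37 (0.0321). Its fold was lowest in the xap5 deletion, and mug114 on the other strand had deposited folds of -0.30, -0.28 and -0.21. SPNCRNA.389 also fell in all 3, at deposited folds of -2.42, -1.74 and -1.28. It lies at chrII:2129803-2130589, 1997 bases from mat3-Mi in the mating-type region, and all of its windows are repeated elsewhere. SPNCRNA.390, 1587 bases from mat3-Mc, had deposited folds of -2.40 in the xap5 deletion, -1.07 (not called) and 0.01 (not called), and 96.9% of it is repeated. Beside these RNAs, the M mating-type gene mat1-Mc had deposited folds of -4.27, 0.16 (not called) and 0.84, and mat3-Mc had -4.28, 0.16 (not called) and 0.93. The mating-type genes thus moved in the xap5 deletion although that strain and wild type carry the same label, and their part in the values of SPNCRNA.389 and SPNCRNA.390 was not tested. SPNCRNA.155 fell in the xap5 deletion at a deposited -2.93, with -0.09 and -1.23 in the pht1 and double deletions that were not called. Its start is 45 bases from that of erg11, a sterol synthesis gene, which had deposited folds of -0.37, 0.02 (not called) and -0.71. Prl57 (SPNCRNA.57) fell in the xap5 deletion at a deposited -1.72, with 0.65 and 0.28 in the others that were not called. SPNCRNA.258 fell in the pht1 deletion at a deposited -1.63, with -0.54 and 0.00 in the others that were not called. It lies 47 bases downstream of the ribosomal protein gene rpl31, on the same strand.

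A minority of the RNAs was called in the same direction in all 3 deletions. Of the 228, 19 rose in all 3 (8.33%, beside 7.97% of all deposited entries), which is near the background. They include SPNCRNA.07, SPNCRNA.31, SPNCRNA.54, SPNCRNA.103, SPNCRNA.428, SPNCRNA.451, SPNCRNA.472 and SPNCRNA.540. SPNCRNA.472, divergent from the transporter gene bfr1, had deposited folds of 2.46, 1.32 and 2.53, and bfr1 had 0.94, -0.07 (not called) and 0.70. Only SPNCRNA.200 and SPNCRNA.389 fell in all 3 (0.877%, beside 4.47%). Of the rest, 89 were called in none (39.0%, beside 26.9%). The largest patterns among those called were 38 RNAs higher in the double deletion alone (16.7%, beside 9.08%) and 30 higher in the xap5 and double deletions but not called in the pht1 deletion (13.2%, beside 9.92%). A further 10 rose in the xap5 deletion alone (4.39%, beside 2.19%) and 3 in both single deletions but not in the double (1.32%, beside 0.331%). Near the background were the 6 that rose in the pht1 and double deletions (2.63%, beside 2.96%) and the 5 that rose in the pht1 deletion alone (2.19%, beside 1.62%). The double deletion alone was lower for 8 (3.51%, beside 11.9%). The comparisons share their wild type, which ties their directions together.

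Calls in opposite directions were rare, at 4 RNAs (1.75%, beside 1.65% of all deposited entries). SPNCRNA.504 rose in the xap5 deletion (1.24) and fell in the pht1 deletion (-0.95) and the double deletion (-0.76) in the deposited table. The other 3, named because of this count, are prl3 (SPNCRNA.03), SPNCRNA.426 and nam3 (SPNCRNA.532), all higher in the xap5 deletion and lower in the pht1 deletion. Their deposited xap5 folds were 1.05, 0.36 and 0.45, and their pht1 folds were -0.38, -0.43 and -0.42.

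For some RNAs the double deletion stood well above the single deletions, and for others it stood well below the xap5 deletion. Differences of deposited log2 folds were counted where at least 1 of the comparisons that enter was called, and they have no error and were not tested. Against the xap5 deletion, the double deletion was higher by at least 1 for 37 of 133 RNAs (27.8%) and lower by at least 1 for 14 (10.5%). The median difference was 0.52. For all entries the counts were 329 and 102 of 4000 (8.2% and 2.55%). Against the pht1 deletion, 49 of 124 RNAs were higher by at least 1 (39.5%) and 2 were lower (1.61%), with a median of 0.84. For all entries these counts were 550 and 147 of 3975 (13.8% and 3.70%). The interaction, obtained by subtracting the folds of both single deletions from that of the double, was at least 1 for 14 of 138 RNAs and at most -1 for 21, with a median of -0.03. The shares of these interactions were 10.1% and 15.2%. For all entries the interaction counts were 121 and 142 of 4198 (2.88% and 3.38%). Against the xap5 deletion and for the interaction, these RNAs thus exceeded all entries in both directions. SPNCRNA.534 had a deposited double deletion fold 2.51 above the sum of its single folds, neither of which was called. The lowest interactions were -2.31 for SPNCRNA.332, whose pht1 fold was not called, and -2.21 for SPNCRNA.219, whose double deletion fold was not called. SPNCRNA.529 and prl43 had interactions of -1.92 and -1.90, and their pht1 folds were not called either. The largest interaction, 4.64, belongs to SPNCRNA.200, whose fold was nearer to 0 in the double deletion than in either single deletion.

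The 177 located RNAs are 100 to 3776 bases long with a median of 665, and lie on chromosomes I (75), II (63) and III (39). Their median GC content is 32.6%. None overlaps an LTR of the deposited LTR table, and the one nearest a chromosome end is 29.5 kb from it. By position, 96 are intergenic and divergent from the coding gene upstream, and 31, 15 and 43 of these rose in the xap5, pht1 and double deletions (32.3%, 15.6% and 44.8%, beside 21.1%, 13.5% and 30.5% of all deposited entries). Another 32 are intergenic on the same strand as the upstream gene, of which 4, 5 and 6 rose (12.5%, 15.6% and 18.8%), and all 14 centromeric RNAs are among them. A further 19 lie opposite a coding gene, of which 6, 3 and 11 rose (31.6%, 15.8% and 57.9%), and 30 overlap a coding gene on the same strand, of which 7, 7 and 10 rose (23.3%, 23.3% and 33.3%).

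RNAs that rose beside a divergent coding gene had neighbours that rose, fell or were not called, and the balance differed with the gap. The gap between RNA and neighbour has a median of 365.5 bases over the 96 divergent RNAs, and 95 of the neighbours have a fold. Of the 30 RNAs that rose in the xap5 deletion, the neighbour rose for 11 and fell for 7. Of the 15 that rose in the pht1 deletion, it rose for 1 and fell for 1. Of the 42 that rose in the double deletion, it rose for 19 and fell for 11. Among the 55 RNAs within 500 bases of the neighbour, there were more falling than rising neighbours. Of these 55 neighbours, 10, 4 and 15 rose and 16, 6 and 20 fell in the xap5, pht1 and double deletions. Over all deposited entries 21.1%, 13.5% and 30.5% rose and 20.6%, 11.1% and 34.3% fell. Within 500 bases, 14 RNAs rose in the xap5 deletion, with the neighbour higher for 2 and lower for 5. In the double deletion 22 rose, with the neighbour higher for 6 and lower for 8. None of the 7 neighbours of those that rose in the pht1 deletion was called. The rank correlation of deposited folds over all 95 pairs was 0.19, 0.14 and 0.28 in the xap5, pht1 and double deletions, and over the 55 close pairs -0.03, 0.02 and 0.07. These are descriptions over pairs that share the same libraries, and the difference between close and wide pairs was not tested. Prl33 rose in the double deletion while ure7, 178 bases away, fell at a deposited -0.27 (adjusted p = 0.0459), whereas SPNCRNA.155 and erg11 both fell in the xap5 deletion. SPNCRNA.549 and SPCC1739.08c, at a gap over 500 bases, both rose in the xap5 and double deletions. RNAs that overlap a coding gene are not in these counts, such as SPNCRNA.540 with hsp16 and SPNCRNA.529 with tps1. Those that overlap only another noncoding RNA were kept.

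**Figure D4:**
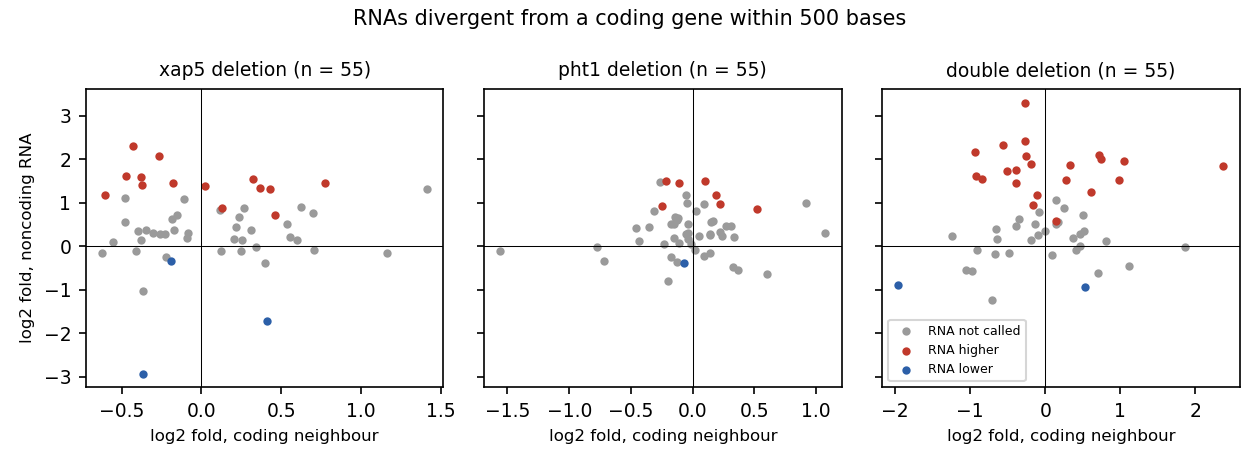
Deposited log2 fold of each divergent noncoding RNA (vertical axis) against that of its coding neighbour within 500 bases (horizontal axis), in the xap5, pht1 and double deletions (55 pairs each), coloured by the call of the RNA. The red points spread to both sides of 0 on the horizontal axis, with neighbours higher for 6 and lower for 8 of the 22 RNAs that rose in the double deletion; over divergent pairs at any gap, not all drawn here, they were higher for 19 and lower for 11 of 42.

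Among the 19 RNAs opposite a coding gene, the medians of the deposited folds were 0.54, 0.21 and 1.12 for the RNAs and 0.00, 0.07 and 0.20 for the coding genes with a fold. Of the 10 that rose in the double deletion and whose coding gene has a fold, that gene rose for 6, fell for 3 and was not called for 1. In the xap5 deletion none of 5 such coding genes was called, and in the pht1 deletion none of 2.

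Overlap on the same strand limits single values. In all, 42 of the 177 RNAs overlap another tabled entry on their own strand, 32 of them a coding gene with a fold (some of these also lie opposite a gene and were placed there above), and for 9 of the 42 all 3 deposited folds lie within 0.2 of the partner's. Besides SPNCRNA.570 and SPNCRNA.133, these include SPNCRNA.03 with SPAC806.11, SPNCRNA.112 with rhs1 and SPNCRNA.228 with fra2, named because of this count. Other RNAs stood apart from the gene they overlap. SPNCRNA.466, within SPCC1672.01 over 81.1% of its length, had a deposited fold of 2.01 in the double deletion beside -0.53 for the gene, and is named for that gap. SPNCRNA.240, which rose in the pht1 deletion at a deposited 1.59, overlaps lsk1 by 10.6% of its length, and lsk1 had 0.07.

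**Figure D5:**
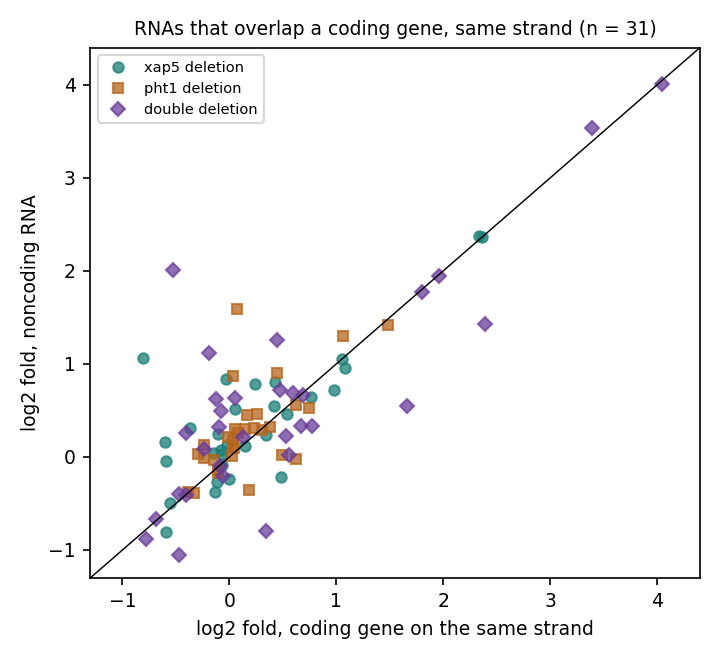
Deposited log2 fold of a noncoding RNA (vertical axis) against that of the coding gene it overlaps on the same strand (horizontal axis), for 31 RNAs in the xap5, pht1 and double deletions; the line marks equal folds. SPNCRNA.570 at 4.01 and SPNCRNA.133 at 3.53 lie near the line in the double deletion, and SPNCRNA.466 at 2.01 lies well above it.

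The deposited intergenic table held a region directly upstream of 51 of them and directly downstream of 53. The upstream regions were called higher for 3, 1 and 9 of 51 in the xap5, pht1 and double deletions, and the downstream regions for 3, 0 and 12 of 53. Over all deposited intergenic regions, 2.65%, 1.65% and 15% were higher and 0.686%, 0.196% and 1.63% were lower. In each comparison 1 upstream region was called lower and none downstream. In the double deletion the deposited median folds of the upstream and downstream regions were 0.50 and 0.43, beside 0.43 for all intergenic regions. The deposited antisense table lists 24 of the 228 RNAs again with the same folds within 0.001, so it adds no second reading of them.

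Genes of RNA surveillance, which limit noncoding RNA in fission yeast (the exosome, its cofactors, the Mmi1 machinery and RNA interference), had more members lower than higher. Of 32 such genes, 1, 1 and 1 rose and 14, 6 and 21 fell in the xap5, pht1 and double deletions, with deposited medians of -0.28, -0.15 and -0.38. Beside these counts, 20.6%, 11.1% and 34.3% of all deposited entries fell. The part of these genes in the noncoding RNA values was not tested. On either side of the number limit, SPNCRNA.587 had deposited folds of 0.12, -0.02 and 0.22, and SPNCRNA.600, the first entry beyond it, had -0.15, 0.44 (called) and -0.21.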

How the data were processed

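The deposited files are tables of the authors' own comparisons of each deletion with wild type, over the sense strand, the antisense strand, LTRs and intergenic gaps. Their log2 folds are, per the file headers, given as logFC; they are read as log2 because edgeR, named with BWA 0.5.8c in the submitters' processing notes without their roles, writes them so. The deposited p-values and adjusted p-values are the authors'. Among the p-values of the deposited sense table, treated as a score, 55 exceed 1 (21 of them for these RNAs) with a maximum of 1.17. The reason for these, the count normalization and the depth of each library are not given in the sources used here, so no interval was computed.

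The 228 entries were taken by identifier, and the RNAs, classes and lists were chosen with earlier results of these data known. Calls use the adjusted p-value as deposited, at a limit of 0.05, and nothing was tested again. A log2 fold beyond 20 means that 1 group had no reads, and no fold is given for it; SPNCRNA.257 has such a value in the pht1 comparison. Positions come from RefSeq ASM294v3, where 114 of 117 deposited LTR rows have an LTR at exactly the same span. Of the 51 RNAs without a position, 9 are listed there under another name. An RNA is repeated where more than 50% of its 100-base windows occur again in the genome. Named RNAs are the 10 highest and 5 lowest called folds and the 5 smallest adjusted p-values per comparison, those with a name and known role, the 5 largest differences each way, those with a fold beyond 20, and the 5 longest, 56 in all, of which those bearing on a comparison are described; RNAs outside that rule are marked as named for a count. The counting was checked on simulated tables. Python 3.11.15 with pandas 2.3.3, numpy 2.4.6 and matplotlib 3.10.9 was used.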

Additional observations from a re-analysis of the deposited data

How the results depend on the processing

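No paired analysis was possible because the deposited tables hold no values per library; for the same reason no library could be left out, and neither alternative was run. At a deposited adjusted p under 0.01, the xap5 deletion had 6 lower, the pht1 deletion 14 higher and 5 lower, the double deletion 12 lower, and 10 RNAs were higher and 1 lower in all 3 deletions. With a 2-fold minimum added, 5, 3 and 8 were lower and 11 were higher in all 3. Without RNAs that overlap a gene on the opposite strand, 12 were higher and 1 lower in all 3. Without repeated RNAs, an alternative chosen after seeing the data, 7 were lower in the xap5 deletion and 1 in all 3. No share over all entries is given at these settings, apart from the 2-fold shares per deletion above. Whether the differences from all entries hold at the other settings was not examined. Medians over RNAs called at least once were 0.85, 0.48 and 1.22. Counting differences from 0.58 gave 61 higher against the xap5 deletion, 77 higher and 9 lower against the pht1 deletion, and 27 and 38 interactions. Limiting neighbours to 500 bases left 55 divergent RNAs. Adjusted p-values recomputed by the Benjamini-Hochberg method kept all 8 counts within 1.5 times, as did leaving out folds beyond 20, same-strand overlaps, numbers of 500 and above or, as added later, RNAs without a position or over coding genes. Of 167 calls or non-calls of named RNAs, 25 lost their call at 0.01; these alternatives leave the deposited folds as they are and cannot turn a direction.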

Other observations

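Chromosome III held the largest share of early noncoding RNAs that rose in the xap5 and double deletions: of its 39 located RNAs, 16, 7 and 21 rose in the xap5, pht1 and double deletions (41.0%, 17.9% and 53.8%) and 0, 0 and 3 fell. Over all 1039 located sense entries of chromosome III, 22.4%, 14.1% and 32.9% rose. Chromosome I, with 75 RNAs, had 19, 12 and 29 higher (25.3%, 16% and 38.7%, beside 21.1%, 14.2% and 30.3% of its entries). Chromosome II, with 63, had 13, 11 and 20 higher (20.6%, 17.5% and 31.7%, beside 19.5%, 12.2% and 28.7%). The deposited double deletion medians were 0.59, 0.34 and 1.18 for chromosomes I, II and III. These shares were not tested against each other.

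By length, the 59 RNAs of 507 to 910 bases had 21, 14 and 29 higher (35.6%, 23.7% and 49.2%), the 59 shorter ones had 14, 9 and 23 (23.7%, 15.3% and 39.0%), and the 59 longer ones had 13, 7 and 18 (22.0%, 11.9% and 30.5%). Over all deposited entries 21.1%, 13.5% and 30.5% rose. The longest RNA, rse1 at 3776 bases, was higher in the xap5 deletion by a deposited 1.43. Of the 51 RNAs without a position in the reference, 18, 3 and 25 rose (35.3%, 5.88% and 49.0%).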
